A study of Mus musculus with 8 samples.

Results

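The p53 pathway was examined in the ventricles of the mouse heart at embryonic day 11.5, through 30 genes chosen by name: Trp53 itself, its feedback regulators, and its targets in cell cycle arrest, apoptosis, DNA repair and metabolism. All 30 symbols were found among the 52778 features of the expression table. They took up 31 rows, because Cdkn1a is listed a second time on an alternative sequence of chromosome 17, where it is at 0 in each library. The study compared 4 control libraries, labelled C57BL/6 WT, with 4 libraries from embryos labelled as a global ATF4 knockout, all from untreated embryos and all carrying the batch label 1. The mutants are homozygous for a loss of 7 bases from exon 3 of Atf4, made with CRISPR/Cas9. Per the design text it shifts the reading frame, ends ATF4 protein production and spares the polyadenylation signal. The design text calls the libraries of each genotype biological replicates. The labels do not say how many mutant lines or litters were used, whether embryos were pooled, or their sexes. The labels conflict in places. The genotype field of the mutants also reads C57BL/6 WT, so groups were taken from the titles, and the protocol attached to each sample speaks of cultured cortical neurons and of ribosomal RNA depletion, while the design text names heart tissue and a stranded mRNA kit.

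The p53 protein is a transcription factor that is kept scarce in unstressed cells because MDM2 marks it for degradation, while MDM4 holds down its activity. DNA damage, faulty ribosome assembly and other stresses release p53, which then switches on genes that halt the cell cycle, repair DNA or trigger apoptosis, and also Mdm2, its own inhibitor. Since p53 is controlled mainly as a protein, the level of its own transcript says little of its activity, and its targets are the usual readout. In the embryo, loss of Mdm2 or Mdm4 is lethal unless Trp53 is also lost. ATF4, the factor that the mutation is stated to remove, drives the amino acid branch of the stress response, and some apoptosis genes, among them Pmaip1, Bbc3 and Tnfrsf10b, are known to answer to ATF4 or its partner CHOP as well as to p53.

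The DNA near the transcription starts of some members holds matches to a half-site, and p53 binds half-sites in pairs. RefSeq windows on GRCm38.p6, from 250 bases before to 50 bases after a start, were available for 22 of the 30 members. The p53 half-site, an element of 10 bases that reads the same way on both strands, was found in the windows of 11 of these 22 genes, and in those of 9.55% of all 27025 genes with a window. A full site was searched as 2 half-sites with at most 3 bases between them, with no mismatch allowed in either. It was found in the window of 0 members and of 0.0185% of all genes. The stretches below lie upstream of the start, outside annotated exons. They were taken from members chosen by name among the 10 with a half-site before a start. Each is written 5′ to 3′ on the strand of its gene, with the half-sites in capitals.
Cdkn1a, chr17:29090886-29090957, plus strand: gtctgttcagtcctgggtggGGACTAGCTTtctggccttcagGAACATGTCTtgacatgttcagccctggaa
Mdm2, chr10:117710915-117710964, minus strand: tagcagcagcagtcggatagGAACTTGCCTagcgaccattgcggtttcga
Ccng1, chr11:40755442-40755491, minus strand: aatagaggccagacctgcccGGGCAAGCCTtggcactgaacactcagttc
Bax, chr7:45467070-45467119, minus strand: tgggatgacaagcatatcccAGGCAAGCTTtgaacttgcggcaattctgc
Ddit4l, chr3:137623562-137623611, plus strand: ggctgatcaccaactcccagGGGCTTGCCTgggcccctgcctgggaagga
A match is a description of the letters and does not show binding, and sites farther from a start were not searched. Sites with a mismatch were not searched either. In the Cdkn1a stretch, the 10 bases right after GAACATGTCT miss the half-site pattern only at their first base, and so were not counted. Perp, Ptp4a3, Zmat3, Xpc, Ddb2, Pmaip1, Trp53inp1 and Tnfrsf10b had no window. The composite element of C/EBP and ATF factors, searched as TGATGNAA on both strands, was found in a window of 1 of the 22 genes, Polk, and in those of 4.51% of all genes.

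Expression is given as TPM, transcript abundance scaled for transcript length and library size, so levels can be set side by side between genes. Read depth cannot be recovered from TPM, so error was taken from how far the 4 replicate libraries of each genotype lay apart. In limma, this spread is drawn toward that of genes of like level. The listed features summed to between 923473 and 949762 TPM per library. Pearson correlations of log2(TPM + 1) across genes were 0.9897 to 0.9913 within groups and 0.9897 to 0.9915 between them. Atf4, the targeted gene, was measured at 105, 122, 115 and 105 TPM in the controls and at 166, 164, 185 and 148 TPM in the mutants. Its transcript was higher in the mutants by a log2 fold change of 0.57 (limma adjusted p of 0.0430), so its level does not itself show a loss of the protein, and the genotype rests on the labels. This call is lost without 1 library in all but 1 of the 8 cases, as given in the closing section. The 8 ventricular cardiomyocyte markers summed to between 34402 and 37490 TPM per library. Of the 6 neuronal markers, Snap25, Neurod1, Rbfox3 and Elavl3 averaged under 0.5 TPM, while Stmn2 and Tubb3 averaged 1.34 and 8.84 TPM over the 8 libraries.

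Most of the pathway was expressed in the embryonic heart, over a wide range of levels. The most abundant member was Rps27l, a ribosomal protein paralogue, at 188 ± 5.86 TPM in the controls (SD, n = 4), and next came Ccng1 at 124 ± 4.24 TPM and Plk2 at 92.8 ± 2.52 TPM. Bax, Ei24, Trp53 and Perp lay close together, with control means between 68.8 and 79.7 TPM. Mdm2 at 43.6 ± 1.11 TPM and Mdm4 at 34.6 ± 0.448 TPM were above the classical arrest target Cdkn1a, which held 23.4 ± 2.81 TPM. The proapoptotic genes differed widely: Bax, which permeabilises mitochondria, was at 79.7 ± 2.06 TPM in the controls, while the BH3-only genes Bbc3 and Pmaip1, which act upstream of it, held 5.82 ± 1.00 and 1.03 ± 0.0551 TPM. Fas, a death receptor, was the lowest member, with 0.546 to 0.812 TPM in the controls and 0.185 to 1.06 TPM in the mutants.

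**Figure D1:**
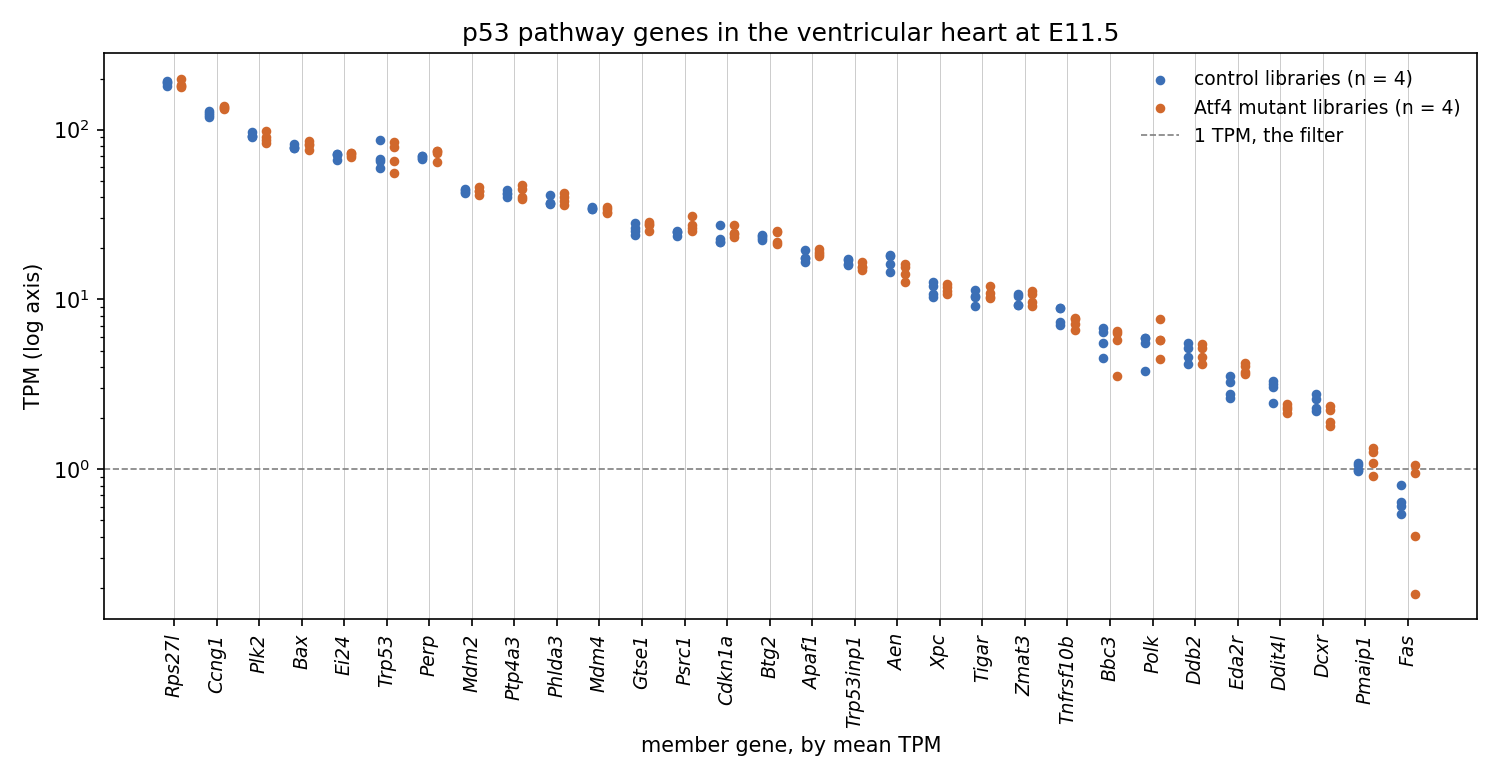
TPM on a log axis of the 30 members in each of the 8 libraries, ordered by mean TPM, with control libraries in blue and mutant libraries in orange. The points of the genotypes lie beside each other for most members, Trp53 scatters more than its neighbours in level, and Fas lies mostly under the dashed line at 1 TPM.

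None of the members passed the test for a difference between genotypes. Of the 30, 29 reached at least 1 TPM in at least 4 libraries and were tested, all except Fas, and 0 of them had a limma adjusted p below 0.05, against 6 of 15545 genes tested, or 0.0386%. The lowest adjusted p among the members was 0.720, for Ccng1. At an unadjusted p below 0.05 there were 4 members, 3 higher in the mutants (Ccng1, Eda2r and Psrc1) and 1 lower (Ddit4l). That is 13.8% of the tested members, against 6.1% of all tested genes, of which 2.65% were higher and 3.45% lower. In 3 members the ranges of the genotypes were apart, Ccng1 and Eda2r with the mutants above and Ddit4l with the mutants below, which is 10.3% of the tested members. Over all tested genes this share was 3.68%, made up of 1.63% higher and 2.05% lower. The members were chosen with earlier results of these data known, so their shares are not independent of the data. The log2 fold change was above 0 in 17 members and below 0 in 12, with a median of 0.020, which went to 0.0062 without mutant replicate 1 and to 0.039 without mutant replicate 2. Over all tested genes it was above 0 in 7490 and below 0 in 8055, with a median of -0.0033. As a mean over the 29 tested members, the libraries held 4.38, 4.37, 4.34 and 4.41 on the log2(TPM + 1) scale in the controls and 4.40, 4.35, 4.42 and 4.36 in the mutants, so the groups overlapped. In bulk tissue, fewer cells of a type and less RNA per cell cannot be told apart, and this holds for each value given here.

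**Figure D2:**
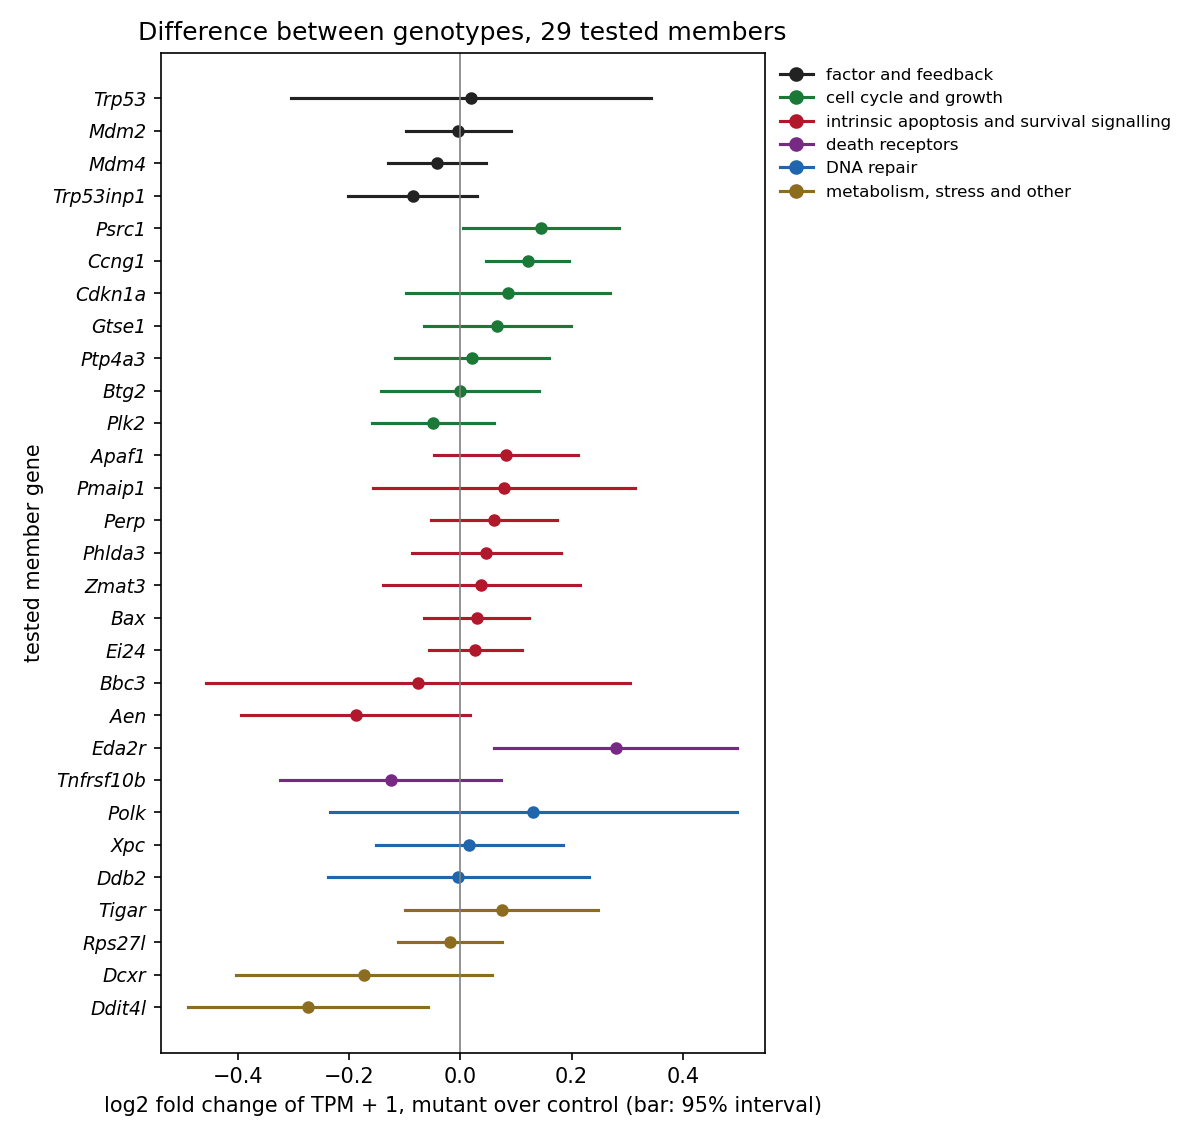
Log2 fold change of TPM + 1, mutant over control, for the 29 tested members, grouped and coloured by role, with bars for the 95% confidence interval from limma before any adjustment. The bars of Ccng1, Eda2r and Ddit4l lie clear of 0, that of Psrc1 ends just above 0, and the widest are those of Bbc3, Polk and Trp53.

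Trp53 and its feedback regulators did not differ detectably, with 0 of 4 genes called and 0 at an unadjusted p below 0.05. Trp53 held 86.7, 65.7, 59.7 and 66.7 TPM in the controls and 65.0, 84.1, 79.3 and 55.3 TPM in the mutants. Control replicate 1 and mutant replicates 2 and 3 were high, so the spread lay within the groups and the ranges overlapped almost wholly. Its log2 fold change of 0.020 (SE 0.14) had a 95% interval from -0.30 to 0.34 (limma adjusted p of 0.995), so for Trp53 a moderate difference in either direction could not be resolved. Its sign turned in 4 of the 8 fits that left out 1 library, which gave values from -0.068 to 0.13.

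Mdm2, the ubiquitin ligase that p53 itself induces, was measured far more tightly. Its controls held 44.7, 43.1, 42.3 and 44.4 TPM and its mutants 43.8, 43.5, 45.8 and 41.0 TPM, and the lowest and the highest value both came from mutants. The log2 fold change of -0.0039 had a 95% interval from -0.0985 to 0.0907 (limma adjusted p of 0.998), and its sign flipped to 0.0032 with median-of-ratios scaling. Mdm4, the partner of MDM2 that blocks the activation domain of p53, was at 34.7, 34.3, 34.2 and 35.2 TPM in the controls and at 33.9, 32.9, 35.2 and 32.2 TPM in the mutants. Its groups overlapped through mutant replicate 3, and the log2 fold change was -0.042, with a 95% interval from -0.13 to 0.046. A predicted gene on the opposite strand, Gm29257, overlaps Mdm4 and averaged 3.11 TPM. Trp53inp1, a stress protein that p53 induces and that promotes its proapoptotic activity, was at 16.98, 16.1, 17.3 and 16.2 TPM in the controls and at 15.6, 15.5, 14.8 and 16.6 TPM in the mutants. Of these mutants only replicate 4 reached into the control range, and the log2 fold change was -0.086 (limma unadjusted p of 0.127, adjusted 0.861).

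**Figure D3:**
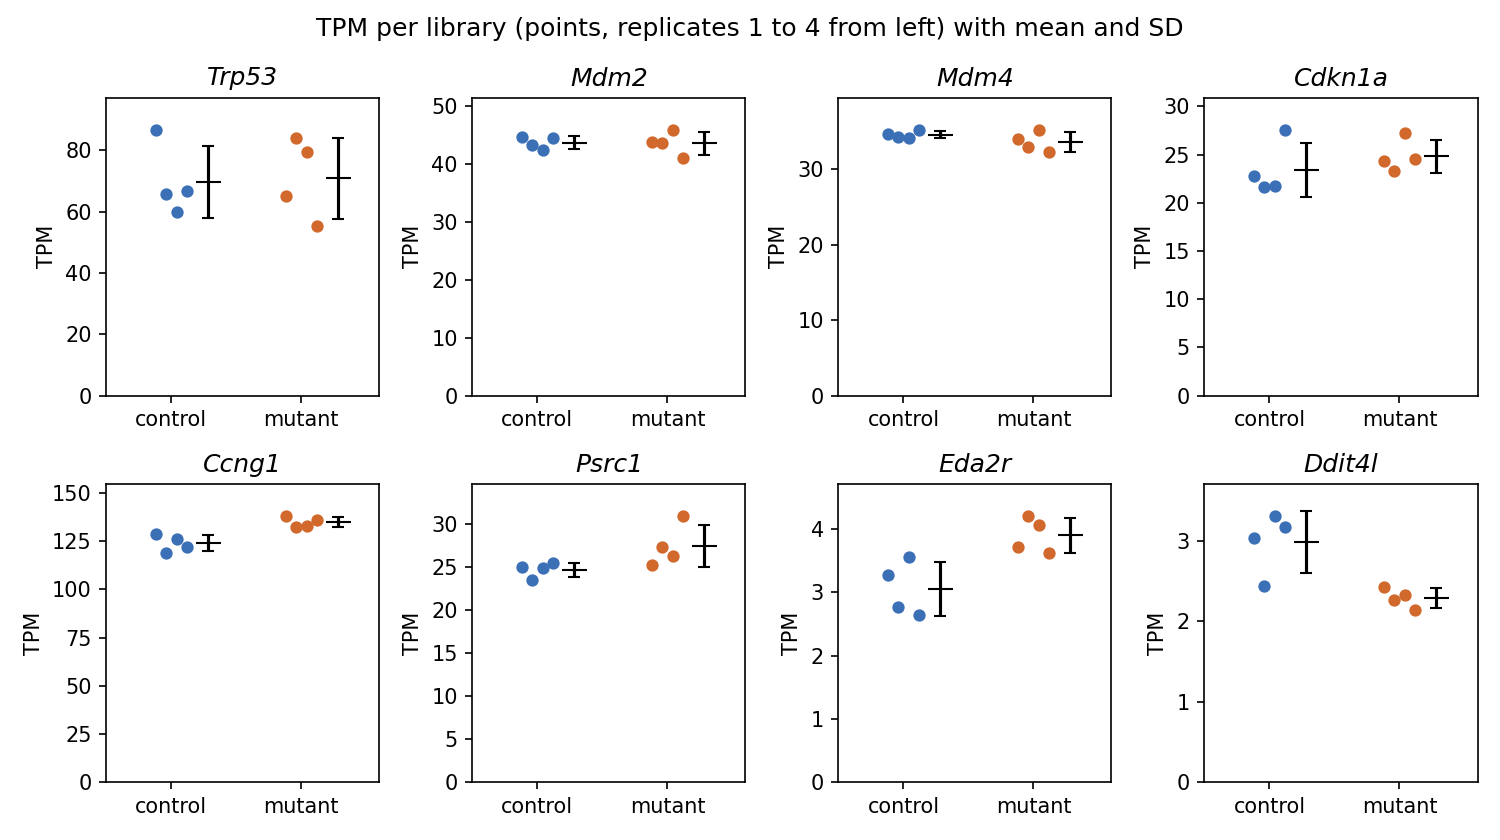
TPM in each library for 8 members, on axes that start at 0, with replicates 1 to 4 from left to right in each group and the mean and SD (n = 4) beside them. Trp53 scatters within both groups, Mdm2 and Mdm4 are level, the mutants lie above the controls in Ccng1 and Eda2r and below them in Ddit4l, and mutant replicate 4 is the highest library in Psrc1.

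Among the 7 cell cycle and growth genes, 0 were called, 5 had a log2 fold change above 0 and 2 below, and 2 of them, Ccng1 and Psrc1, had an unadjusted p below 0.05. Ccng1 encodes cyclin G1, which recruits a phosphatase to MDM2 and is among the most responsive p53 targets (chromosome 11, bases 40748552 to 40755309 of GRCm38). Its controls held 129, 119, 126 and 122 TPM and its mutants 138, 133, 133 and 136 TPM. Every mutant was above every control, by a gap of 3.88 TPM between the nearest libraries, and the means were 124 ± 4.24 and 135 ± 2.50 TPM (SD, n = 4 each). This was a log2 fold change of 0.12 (SE 0.033) with a 95% interval from 0.046 to 0.20 (limma unadjusted p of 0.00516, adjusted 0.720). It stayed between 0.10 and 0.14 in the 17 alternatives, with an adjusted p of at least 0.625 in each.

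Cdkn1a encodes p21, the inhibitor of cyclin-dependent kinases through which p53 halts the cell cycle. It was at 22.8, 21.6, 21.7 and 27.6 TPM in the controls and at 24.3, 23.3, 27.3 and 24.5 TPM in the mutants. Control replicate 4 held the highest value of all, and the other 3 controls lay below each mutant. Its log2 fold change of 0.086 had a 95% interval from -0.097 to 0.27 (limma unadjusted p of 0.319, adjusted 0.929). Without control replicate 4 it was 0.16 (unadjusted p of 0.0263, adjusted 0.708). With any 1 library left out it ranged from 0.042 to 0.16.

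Psrc1, which encodes a microtubule-binding protein of the mitotic spindle, held 24.9, 23.5, 24.8 and 25.4 TPM in the controls and 25.2, 27.3, 26.2 and 30.9 TPM in the mutants. The groups overlapped through mutant replicate 1, and mutant replicate 4 was high. The log2 fold change was 0.14 (limma unadjusted p of 0.0446, adjusted 0.809). It went to 0.088 without mutant replicate 4 (unadjusted p of 0.106). Under median-of-ratios scaling it was 0.15 with an unadjusted p of 0.0535. The unadjusted p was also above 0.05 with quantile normalization (0.0624) and without a variance trend (0.0568). It was 0.0621 with TPM rescaled without mitochondrial and haemoglobin genes. Without any 1 control it was 0.0525 to 0.110, and without mutant replicate 2 it was 0.076. In the remaining alternatives it stayed below 0.05. Gtse1, another microtubule-binding mitotic protein, which also carries p53 out of the nucleus, was at 26.0 ± 1.83 and 27.2 ± 1.35 TPM, a log2 fold change of 0.067. Beside these, the 10 mitosis genes listed for comparison all had log2 fold changes above 0, with a median of 0.053, 0 called and 1 at an unadjusted p below 0.05. The one among them with the lowest unadjusted p was Aurka, a spindle kinase, at 60.1 ± 2.96 and 65.4 ± 0.924 TPM (limma unadjusted p of 0.0141, adjusted 0.780). The part of mitotic expression in the values of Psrc1 and Gtse1 was not tested.

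The other growth genes showed smaller differences. Plk2, a kinase of centriole duplication, ranged from 90.9 to 96.5 TPM in the controls and from 83.7 to 98.1 TPM in the mutants. Its log2 fold change was -0.049, or -0.092 without mutant replicate 1 (limma unadjusted p of 0.0442, adjusted 0.738). With any 1 library left out it ranged from -0.092 to -0.017. Btg2, an antiproliferative partner of the mRNA deadenylase, was at 23.2 ± 0.707 and 23.2 ± 2.07 TPM, with a sign that depended on scaling, from -0.0011 as deposited to 0.0058 with median-of-ratios scaling and 0.0020 with quantile normalization. Ptp4a3, a phosphatase, was at 42.2 ± 1.64 and 42.9 ± 3.79 TPM.

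The 9 genes of intrinsic apoptosis and survival signalling likewise held 0 calls, with 7 log2 fold changes above 0 and 2 below, and 0 at an unadjusted p below 0.05. Bax, the most abundant of them, held 78.3, 79.3, 78.4 and 82.7 TPM in the controls and 86.0, 81.3, 75.9 and 82.3 TPM in the mutants. The lowest and the highest value both belonged to mutants, and the log2 fold change of 0.029 had a 95% interval from -0.066 to 0.12. Aen, a nuclease that p53 induces, had the lowest unadjusted p of the group. It was at 18.3, 18.0, 14.4 and 16.3 TPM in the controls and at 15.4, 12.7, 16.1 and 14.0 TPM in the mutants, overlapping through control replicate 3. Its log2 fold change was -0.19, with a 95% interval from -0.39 to 0.018 (limma unadjusted p of 0.0689, adjusted 0.841). Without control replicate 3 it was -0.25 (unadjusted p of 0.0171, adjusted 0.946). With any 1 library left out it ranged from -0.25 to -0.13.

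The BH3-only genes were low and, for Bbc3, scattered. Bbc3, which encodes PUMA, held 5.53, 6.42, 4.54 and 6.78 TPM in the controls and 6.48, 3.56, 5.74 and 6.33 TPM in the mutants, with mutant replicate 2 lowest. Its log2 fold change of -0.077 had a 95% interval from -0.46 to 0.30, and turned to 0.086 without mutant replicate 2. Pmaip1, which encodes NOXA, lay near the filter, at 0.971 to 1.09 TPM in the controls and 0.911 to 1.34 TPM in the mutants. Apaf1, the scaffold of the apoptosome, was at 17.8 ± 1.23 and 18.8 ± 0.722 TPM. Its log2 fold change was 0.082, or 0.13 without control replicate 2 (limma unadjusted p of 0.0464, adjusted 0.934). With any 1 library left out it ranged from 0.052 to 0.13. Apaf1 shares 7 bases with Ikbip on the opposite strand, which averaged 35.7 TPM. Ikbip held 33.7, 34.1, 33.9 and 34.4 TPM in the controls and 36.6, 36.1, 40.5 and 36.1 TPM in the mutants. Its part in the value of Apaf1 was not tested. The other 4 were Perp, a membrane protein of desmosomes, Phlda3, an inhibitor of AKT, Zmat3, an RNA-binding zinc finger protein, and Ei24, a protein of the endoplasmic reticulum. Their log2 fold changes were 0.061, 0.046, 0.037 and 0.027, and the adjusted p of each was at least 0.914 (limma). Without mutant replicate 2 the value of Perp was 0.11 (unadjusted p of 0.0133, adjusted 0.831). With any 1 library left out it ranged from 0.039 to 0.11.

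Among the death receptors, Eda2r stood out by level difference and Fas was too low to test. Eda2r, the receptor of the ectodysplasin isoform A2 (chromosome X, bases 97333837 to 97377234), held 3.27, 2.76, 3.55 and 2.64 TPM in the controls and 3.73, 4.21, 4.07 and 3.63 TPM in the mutants. All mutants were above all controls, though the nearest pair, mutant replicate 4 and control replicate 3, were only 0.0707 TPM apart. The means were 3.06 ± 0.431 and 3.91 ± 0.276 TPM (SD, n = 4 each). Its log2 fold change of 0.28 (SE 0.097) had a 95% interval from 0.060 to 0.50 (limma unadjusted p of 0.0177, adjusted 0.783). It ranged from 0.23 to 0.35 in the 16 alternatives in which Eda2r was tested, where the lowest adjusted p was 0.690, and the unadjusted p was 0.0512 without control replicate 4. Tnfrsf10b, the TRAIL receptor of the mouse, held 7.40, 8.90, 7.10 and 8.88 TPM in the controls and 7.15, 7.64, 7.75 and 6.63 TPM in the mutants, with controls 2 and 4 high and the other libraries intermixed. This gave a log2 fold change of -0.13 with a 95% interval from -0.32 to 0.073.

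Of the 3 repair genes, 0 were called and 0 had an unadjusted p below 0.05. Xpc, which recognises distorted DNA in nucleotide excision repair, held 12.7, 10.4, 12.0 and 10.8 TPM in the controls and 12.4, 11.9, 10.8 and 11.3 TPM in the mutants. The groups overlapped throughout, and the log2 fold change was 0.016, with a 95% interval from -0.15 to 0.18. Ddb2, which finds ultraviolet damage in chromatin, was at 4.87 ± 0.609 and 4.85 ± 0.588 TPM, and its sign flipped from -0.0035 to 0.0028 with median-of-ratios scaling and 0.029 with quantile normalization. Acp2, on the opposite strand, overlaps Ddb2 over 2554 bases and averaged 20.4 TPM, and whether strand was used in the counting is not given in the sources used here. Polk, a polymerase that copies past damaged bases, held 3.76, 5.94, 5.54 and 5.95 TPM in the controls and 4.45, 5.76, 7.71 and 5.74 TPM in the mutants. The first library of each group was low and mutant replicate 3 high, and the log2 fold change went from 0.13 to 0.0021 without control replicate 1 and to 0.013 without mutant replicate 3.

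Of the 4 genes of metabolism and other functions, 1 had a log2 fold change above 0, 3 had one below, and 0 were called. Ddit4l encodes REDD2, an inhibitor of the growth kinase mTORC1 (chromosome 3, bases 137623672 to 137628332). It held 3.04, 2.44, 3.31 and 3.17 TPM in the controls and 2.43, 2.27, 2.33 and 2.14 TPM in the mutants. Each mutant was below each control, with control replicate 2 only 0.0156 TPM above mutant replicate 1, and the means were 2.99 ± 0.383 and 2.29 ± 0.121 TPM (SD, n = 4 each). Its log2 fold change of -0.27 (SE 0.096) had a 95% interval from -0.49 to -0.058 (limma unadjusted p of 0.0182, adjusted 0.783). It ranged from -0.36 to -0.23 in the 16 alternatives that tested it, where the lowest adjusted p was 0.690. Without control replicate 3 its unadjusted p was 0.0519 (adjusted 0.967).

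Dcxr, a reductase of sugars and dicarbonyls, was in the same direction, at 2.46 ± 0.272 and 2.07 ± 0.266 TPM, with overlapping groups and a log2 fold change of -0.17 (limma unadjusted p of 0.122, adjusted 0.858). Tigar, a phosphatase that turns glucose from glycolysis to the pentose phosphate pathway, was at 10.3 ± 0.914 and 10.9 ± 0.825 TPM, a log2 fold change of 0.074. Rps27l held 191, 180, 187 and 193 TPM in the controls and 179, 180, 184 and 199 TPM in the mutants, and its log2 fold change of -0.019 had a 95% interval from -0.11 to 0.075. The gene resembles Rps27, and how reads shared by such copies were counted is not stated, so its level is uncertain.

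The members differed in how tightly they were measured. Residual SD, the spread between libraries of a group on the log2 scale, had a median of 0.096 over the 29 tested members and of 0.10 over all tested genes. For Trp53 it was 0.25, against a median of 0.068 among the 1649 genes whose mean lay within 0.5 of it on the log2(TPM + 1) scale, of which 2.06% had a larger one. Bbc3 and Polk had 0.28 and 0.27, where 14.3% and 16.3% of genes of like level had larger values. At the other end, Mdm4 had 0.040 and Ccng1 0.039, with larger values in 93.5% and 87.8% of the genes of like level. The limma standard error of the log2 fold change was lowest for Ccng1, Ei24 and Mdm4, at 0.033, 0.037 and 0.039, and highest for Bbc3, Polk and Trp53, at 0.17, 0.16 and 0.14.

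**Figure D4:**
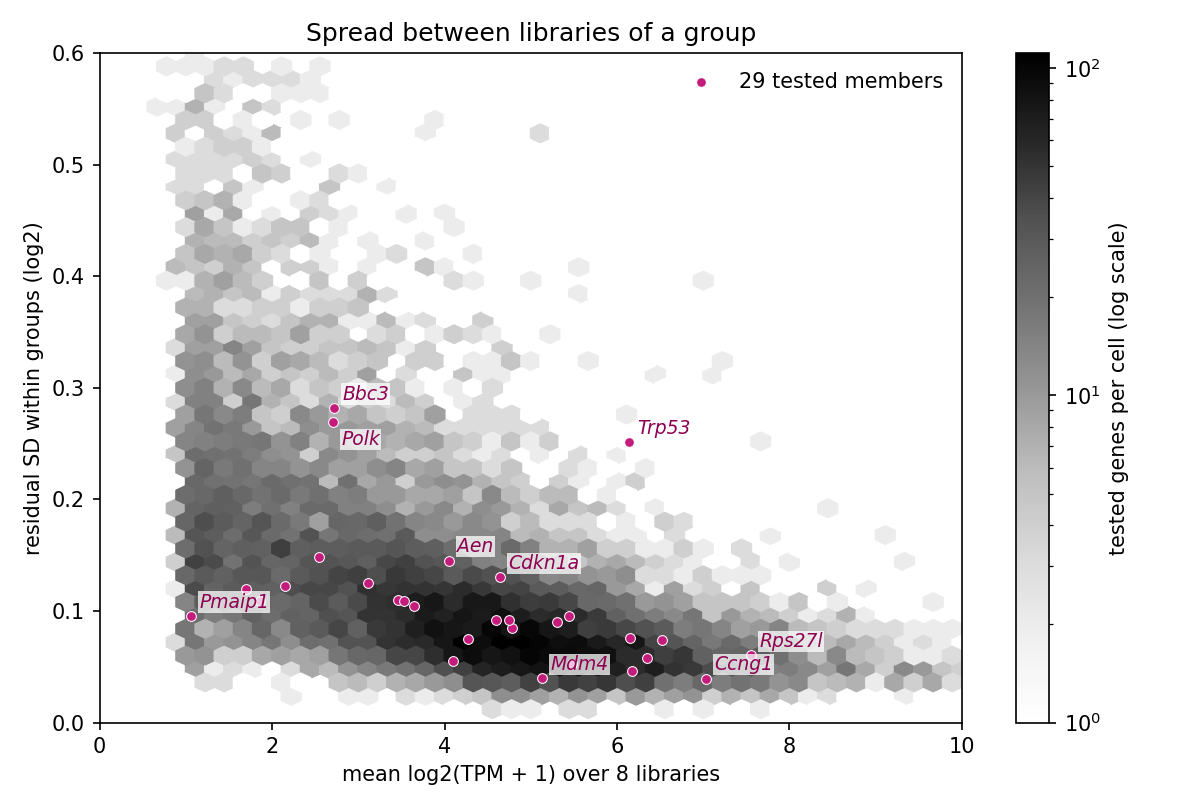
Residual SD within groups (log2 scale) against mean log2(TPM + 1) for all tested genes, in grey by number of genes per cell on a log scale, with the 29 tested members in pink. Trp53 lies far above genes of its level while Ccng1 and Mdm4 lie near the lower edge, and 283 genes beyond the ends of the axes, at 0.6 and 10, are not drawn.

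The members also known as targets of ATF4 or CHOP showed no common direction. Of the 5 listed, Cdkn1a and Pmaip1 had log2 fold changes of 0.086 and 0.079, and Trp53inp1, Tnfrsf10b and Bbc3 had -0.086, -0.13 and -0.077, with 0 called, 0 at an unadjusted p below 0.05 and a median of -0.077.

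Other genes of the pathway also held no call. In the 45 tested of 52 further pathway genes, 2.22% had an unadjusted p below 0.05, against 6.1% of all tested genes. Groups that did not overlap were seen in 0 of them, against 3.68% of all tested genes. Of 30 further p53 targets, 26 were tested, 0 called and 1 at an unadjusted p below 0.05; 11 had a log2 fold change above 0 and 15 below, and the median was -0.019. The lowest unadjusted p belonged to Ppm1d, a phosphatase that switches off p53 signalling, at 13.8 ± 0.614 TPM in controls against 15.3 ± 1.06 TPM in mutants (log2 fold change 0.14, limma unadjusted p of 0.0489, adjusted 0.818). Next came Trp53i11 at -0.17 and Bid, a BH3-only gene of the death receptor route, at -0.15, with an adjusted p of 0.841 each (limma). Sesn2 and Gadd45a, stress genes that ATF4 can also drive, had log2 fold changes of -0.090 and -0.036. Of 22 regulators and relatives of p53, 19 were tested, with 0 called, 0 at an unadjusted p below 0.05, 13 above 0 and 6 below, with a median of 0.015. The lowest unadjusted p among these belonged to Chek1, a checkpoint kinase, at 0.12, then Rps19bp1, an activator of the p53 deacetylase SIRT1, at -0.14, then Kat5, an acetyltransferase of p53, at -0.060 (limma adjusted p of 0.841, 0.865 and 0.896). Rpl5 and Rpl11, ribosomal proteins that bind MDM2 when ribosome assembly fails, had log2 fold changes of 0.040 and -0.067. The family members Trp63 and Trp73 averaged 0.0240 and 0.00958 TPM over the 8 libraries, and Cdkn2a, whose ARF product inhibits MDM2, averaged 0.0459 TPM.

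A further 17 genes act with Bax, Bbc3 and Pmaip1. They were drawn from the BCL2 family, the caspases, and Xiap, Diablo and Cycs, which govern caspase activity. Of these 16 were tested, with 0 called, 8 above and 8 below 0 and a median of 0.0045. At an unadjusted p below 0.05 (limma) there was 1, or 6.25% of those tested, close to the 6.1% of all tested genes. Bik, a BH3-only gene, had the lowest unadjusted p. It held 25.3, 25.0, 21.3 and 20.1 TPM in the controls and 17.9, 15.3, 19.6 and 20.9 TPM in the mutants, overlapping through mutant replicate 4, with a log2 fold change of -0.31 (limma unadjusted p of 0.0165, adjusted 0.780). Next in p were Bcl2l11 and Bad, also BH3-only, at -0.14 and -0.16 (adjusted p of 0.858 and 0.888, limma). The survival genes Mcl1 and Bcl2l1 held 88.8 ± 4.45 and 29.5 ± 1.17 TPM in the controls and 91.4 ± 1.89 and 28.2 ± 2.69 TPM in the mutants.

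Markers of other cell types were set beside these values. Macrophage markers were lower in the mutants in 5 of the 5 that could be tested, with a median log2 fold change of -0.52 and 0 called. At an unadjusted p below 0.05 there were 2, Cx3cr1 at -0.60 (limma unadjusted p of 0.00131) and C1qb at -0.86 (0.00449). In both, each mutant was below each control, which is 40% of those tested, against 3.68% of all tested genes. They averaged 0.997 and 2.92 TPM. In the other tested macrophage markers the groups overlapped. The 6 listed summed to between 9.40 and 18.6 TPM in the controls and between 5.18 and 10.4 TPM in the mutants, and Adgre1 averaged under 0.5 TPM. Erythroid markers were lower in 7 of 8, with a median of -0.28, 0 called and 2 at an unadjusted p below 0.05, and summed to between 4530 and 7704 TPM in the controls and between 4225 and 5846 TPM in the mutants. Their part in the differences of the members and of Bik was not tested. For endothelial, epicardial, cushion, cardiomyocyte and atrial markers the medians lay between -0.044 and 0.053, with 0 called. Those at an unadjusted p below 0.05 were the cardiomyocyte marker Nkx2-5 at 0.11 (limma unadjusted p of 0.0163), the atrial marker Myl7 at 0.14 (0.0186) and the epicardial marker Tbx18 at -0.16 (0.0452). The hepatocyte markers Alb, Afp, Apoa1 and Ttr each averaged under 0.5 TPM.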

How the data were processed

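RNA-seq of embryonic ventricular heart, 4 control and 4 mutant libraries, was analysed from 1 table of TPM deposited by the authors, with a column for each library. The submitters' processing notes name FastQC, Trim Galore 0.6.7, HISAT2 2.2.1, StringTie 2.2.1, featureCounts and DESeq2 and the build GRCm38, without saying which made the TPM. The strand setting and the handling of multi-mapping reads are not given in the sources used here. Start and end of all 30 members equal those of RefSeq GRCm38.p6.

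Values were analysed as log2(TPM + 1), so fold changes of low genes are understated. Of all features, 15545 reached 1 TPM in 4 or more libraries and were fitted in limma 3.58.1 (R 4.3.3) with a variance trend and no covariate. P-values rest on the spread between these libraries, drawn toward that of genes of like level. They are two-sided, with Benjamini-Hochberg adjustment over all 15545 genes. The fit was run on simulated data, with a check only at a log2 change of 1. That is larger than the difference of any member, so the check does not cover the sizes seen here. The same-numbered libraries were compared as pairs, in the closing section. Python 3.11.15, pandas 2.3.3, numpy 2.4.6 and matplotlib 3.10.9 were used for tables and plots.

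Members and lists were chosen with earlier results of these data known. Shown in full are the p53 core genes and, per role, the member with the lowest p and the most abundant one, plus any with an unadjusted p below 0.05 or groups that do not overlap. Bbc3 and values of other members were added after they were seen. Alternatives were a pseudocount of 0.1, no filter or one at 5 TPM, 3 scalings, no variance trend, library weights, a replicate block, and each library left out.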

Additional observations from a re-analysis of the deposited data

Results flagged for a closer look

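Over Atf4 and the 30 members, 62 groups of 4 libraries were checked for a library far from the rest of its group, and 1 was found, where chance gives about 3.1 at the 5% rate of the test. Phlda3, an inhibitor of AKT, held 41.2 TPM in control replicate 4, while control replicates 1 to 3 lay between 36.5 and 36.9 TPM. The mutants held 36.2 to 42.6 TPM, and the log2 fold change of Phlda3 ranged from 0.0062 to 0.087 with any 1 library left out.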

How the results depend on the processing

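None of the 29 tested members reached an adjusted p below 0.05 (limma) in any of the 17 alternatives, a count of 0 in 489 values, with a lowest adjusted p of 0.625, and the count at an unadjusted p below 0.05 ranged from 2 to 5. The 2 came with the filter at 5 TPM, which drops Eda2r and Ddit4l. For Cdkn1a, Plk2, Apaf1, Aen and Perp, the fit without 1 library given above had the lowest unadjusted p of the 8 such fits. In 21 members the direction was the same throughout. The signs that turned with a setting were those of Mdm2 (0.0032 with median-of-ratios scaling, 0.0020 with library weights), Btg2 (0.0058 with median-of-ratios scaling, 0.0020 with quantile normalization) and Ddb2 (0.0028, 0.029 and 0.012 with median-of-ratios scaling, quantile normalization and library weights). With 1 library left out, signs turned in Trp53 (-0.068 to 0.13), Mdm2 (-0.028 to 0.024), Btg2 (-0.041 to 0.039), Ptp4a3 (-0.029 to 0.060), Bbc3 (-0.17 to 0.086), Zmat3 (-0.0074 to 0.081), Xpc (-0.028 to 0.063) and Ddb2 (-0.063 to 0.053). Over all genes the 6 calls became 0 without a filter, without a variance trend and with the replicate block, and 0 to 3 with 1 library left out. Atf4 kept its direction and lost its call at 0.57 without a filter (adjusted p of 0.354), without a variance trend (0.215) and with the block (0.249), at 0.55 with quantile normalization (0.0611), at 0.56 with TPM rescaled without mitochondrial and haemoglobin genes (0.0569), and at 0.51 to 0.62 without 1 library (0.0464 to 0.184), where the call was kept only without mutant replicate 4. The cause was not tested.

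No pairing by replicate number was seen over all tested genes. Same-numbered libraries correlated at -0.0380, 0.0351, -0.0369 and -0.0823 in their deviations from the group means, and 1 of 4 matched its own number best. A pairing that touches few genes could be missed, and the labels do not say what the number marks. With the replicate block 4 members had an unadjusted p below 0.05 and 0 an adjusted one. Depth is unknown, so what it limits for Pmaip1 and Fas, near 1 TPM, cannot be given.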
